A study of Mus musculus with 32 samples.

Results

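The small leucine-rich proteoglycans (SLRPs) measured here were 10 of the 41388 genes in the deposited gene counts: Dcn, Bgn, Lum, Fmod, Prelp, Epyc, Ogn, Omd, Aspn and Chad. They were taken by symbol as genes of the family, and all 10 passed the filter on low counts in every comparison. The study asked how primary mouse chondrocytes, the cells of cartilage, answer an inflammatory cytokine when lactate metabolism, NAD supply or an NF-kB partner is disturbed. It held 32 RNA-sequencing libraries in 16 conditions of 2 libraries each. All came from unpassaged cells of sternal and rib cartilage of newborn pups whose sex was not considered. The paper states a C57BL/6 background for wild-type mice and those with floxed Ldha, and none for those with floxed Nfkbiz or Nampt.

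Wild-type (WT) cells received no virus and were left untreated or were given, for 24 h, FX11 at 40 uM, IL-1b at 10 ng/mL, or both. FX11 is an inhibitor of lactate dehydrogenase A, and IL-1b is the cytokine interleukin-1 beta. Cells of 3 lines named Nfkbiz f/f, Nampt f/f and Ldha f/f, in which loxP sites flank part of the named gene, were infected in culture with adenovirus carrying either eGFP alone (GFP) or Cre with eGFP (Cre), and then went without IL-1b or received it for 24 h. Ldha encodes the A subunit of lactate dehydrogenase, Nampt the enzyme that makes the NAD precursor nicotinamide mononucleotide, and Nfkbiz the nuclear NF-kB partner IkB-zeta. No WT library with Cre virus was analysed here, so exposure to Cre and loss of the floxed gene cannot be told apart. WT, Ldha f/f and Nampt f/f had 1 library of each condition in each of 2 numbered library sets, given below as set 1 and then set 2, whereas every Nfkbiz f/f library was in set 2. Nothing in the labels says that the 2 libraries of a condition came from separate litters, so the p-values measure the spread between these libraries, which may be technical.

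SLRPs are secreted proteins built on a run of leucine-rich repeats, and most carry chondroitin, dermatan or keratan sulfate chains. They sit on the surface of collagen fibrils, where they set fibril spacing and thickness, and several bind growth factors of the TGF-beta family. Decorin (Dcn), biglycan (Bgn) and asporin (Aspn) form one class, fibromodulin (Fmod), lumican (Lum), PRELP (Prelp) and osteomodulin (Omd) another, epiphycan (Epyc) and osteoglycin (Ogn) one more, and chondroadherin (Chad), which binds integrins and collagen, stands outside these.

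All of these genes but Bgn lie near another of the family or inside another gene (positions in GRCm38). On chromosome 10, Dcn, Lum and Epyc lie on the + strand within 202955 bases, with the keratocan gene Kera between Lum and Epyc. On chromosome 13, Aspn (49544443 to 49567557), Omd (49582766 to 49592609) and Ogn (49608071 to 49624500) lie on the + strand within 80058 bases, all inside the span of Cenpp on the opposite strand but sharing no exon bases with it. On chromosome 1, Prelp (- strand) and Fmod (+ strand) lie within 137974 bases. Chad lies on chromosome 11 inside Acsf2 on the opposite strand, again with no shared exon bases, and Bgn is on the X chromosome. Prelp shares 350 exon bases with the antisense gene Gm15851 and Epyc shares 315 with the antisense gene Gm10754. Use of strand in the counting was not stated. Gm10754 was at 0 in all 32 libraries and Gm15851 did not exceed 0.468 CPM (counts scaled by library size, TMM). The paper counted only unambiguous reads. Without use of strand, reads in shared bases may have gone to neither gene, which these levels cannot settle.

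RefSeq promoter sequences (GRCm38.p6) were held for 8 of the 10 genes. The 250 bases before the RefSeq start are shown for the chromosome 13 trio and Epyc, which were among the genes that fell most with Cre and IL-1b below, and for Bgn, which did not pass that test. Capitals mark any match, on either strand, to the TATA box (TATAAA), the CCAAT box (CCAAT), the GC box (GGGCGG), the AP-1 site (TGANTCA), the SOX motif (ACAATG) or the NF-kB motif. The RefSeq starts of Omd and Ogn lie upstream of the gene starts in the counts. Epyc has another RefSeq start, whose window (chr10:97646853-97647102) is not shown and held 2 matches to the SOX motif.
Aspn, chr13:49544193-49544442, + strand: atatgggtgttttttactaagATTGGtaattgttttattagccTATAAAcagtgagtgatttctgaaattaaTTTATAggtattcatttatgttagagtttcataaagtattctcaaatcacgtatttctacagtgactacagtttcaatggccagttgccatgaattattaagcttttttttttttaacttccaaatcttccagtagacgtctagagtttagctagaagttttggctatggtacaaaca
Omd, chr13:49582212-49582461, + strand: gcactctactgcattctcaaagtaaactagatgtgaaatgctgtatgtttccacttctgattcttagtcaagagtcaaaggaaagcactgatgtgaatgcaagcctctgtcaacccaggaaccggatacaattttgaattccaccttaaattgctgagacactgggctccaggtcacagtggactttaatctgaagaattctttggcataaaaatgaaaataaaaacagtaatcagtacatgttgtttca
Ogn, chr13:49607765-49608014, + strand: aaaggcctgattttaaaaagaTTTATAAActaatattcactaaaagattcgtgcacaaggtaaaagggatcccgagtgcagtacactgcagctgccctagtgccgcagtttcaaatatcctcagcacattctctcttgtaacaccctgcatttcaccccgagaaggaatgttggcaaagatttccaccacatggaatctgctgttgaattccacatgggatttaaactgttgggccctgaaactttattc
Epyc, chr10:97643818-97644067, + strand: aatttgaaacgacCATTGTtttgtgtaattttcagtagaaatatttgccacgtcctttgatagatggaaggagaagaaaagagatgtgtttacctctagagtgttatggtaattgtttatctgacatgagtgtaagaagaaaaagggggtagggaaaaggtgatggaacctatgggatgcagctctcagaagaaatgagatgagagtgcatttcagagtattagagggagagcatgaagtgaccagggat
Bgn, chrX:73483351-73483600, + strand: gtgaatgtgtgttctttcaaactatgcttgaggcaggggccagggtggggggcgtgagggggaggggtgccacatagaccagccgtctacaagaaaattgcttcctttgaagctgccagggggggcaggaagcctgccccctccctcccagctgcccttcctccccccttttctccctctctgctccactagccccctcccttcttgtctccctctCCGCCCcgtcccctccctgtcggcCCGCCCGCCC
Aspn held matches to the TATA and CCAAT boxes, Ogn to the TATA box in 2 overlapping matches, Epyc to the SOX motif in the window shown and Bgn to the GC box in 3 places, whereas Omd held no match. Of 32851 RefSeq promoters cut to the same length, 12.4% held the TATA box, 33.8% the CCAAT box, 32.7% the GC box, 6.75% the AP-1 site, 10.7% the SOX motif and 7.25% the NF-kB motif. The GC content was 30.0% for Aspn, 38.4% for Omd, 42.0% for Ogn, 39.2% for Epyc and 64.4% for Bgn. A match is a description of the letters and not evidence of a bound site.

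Each library held between 15830658 and 39959888 counted reads. In the Cre libraries the floxed gene fell to 12.8% (Ldha), 11.9% (Nampt) and 54.2% (Nfkbiz) of its GFP mean without IL-1b, and to 4.97%, 7.61% and 13.3% with it. Among chondrocyte markers, Col2a1 was at 11252 CPM or more, Acan at 772 or more and Sox9 at 260.1 or more in every library, while Matn1 went as low as 4.18 CPM, Matn3 10.9, Snorc 21.9 and Hapln1 24.5. Markers of other cells were also measured: the summed level of 12 fibroblast and perichondrium genes was 3049 to 6645 CPM in the Ldha f/f and Nampt f/f libraries but 1167 to 1722 CPM in the Nfkbiz f/f libraries. The 9 macrophage and leukocyte genes summed to 105 to 282 CPM in WT and at most 66.9 CPM elsewhere. In 2 WT libraries of set 2 the label went against the IL-1b target Mmp3: the library labelled IL-1b held 0.784 CPM and the library labelled FX11 held 2016 CPM. The edgeR tests of the 10 genes that rest on these libraries are given with and without them. The counts of related genes over the 16 control libraries, the DESeq2 counts in WT and the likeness over 16 groups were computed with them only. The test in set 2 alone was also run only with the library labelled IL-1b included.

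The plot of levels by library shows the 10 genes across all conditions. In the 6 GFP libraries without IL-1b, Bgn was the most abundant transcript per length, at a median of 308 CPM per kb, with a range of 231 to 329. Fmod came next at 199.5 CPM per kb (183 to 224), and the ranges of both genes overlapped neither each other nor those of any lower gene. Epyc (median 104 CPM per kb), Ogn (77.3), Dcn (74.6), Prelp (72.8) and Lum (61.3) followed, and the ranges of neighbours in this order overlapped. Omd (30.8 CPM per kb), Chad (27.4) and Aspn (12.1) were lowest, and only Omd and Chad overlapped among them. As a share of the family's summed level per length, the medians were 31.5% for Bgn and 1.22% for Aspn.

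**Figure D1:**
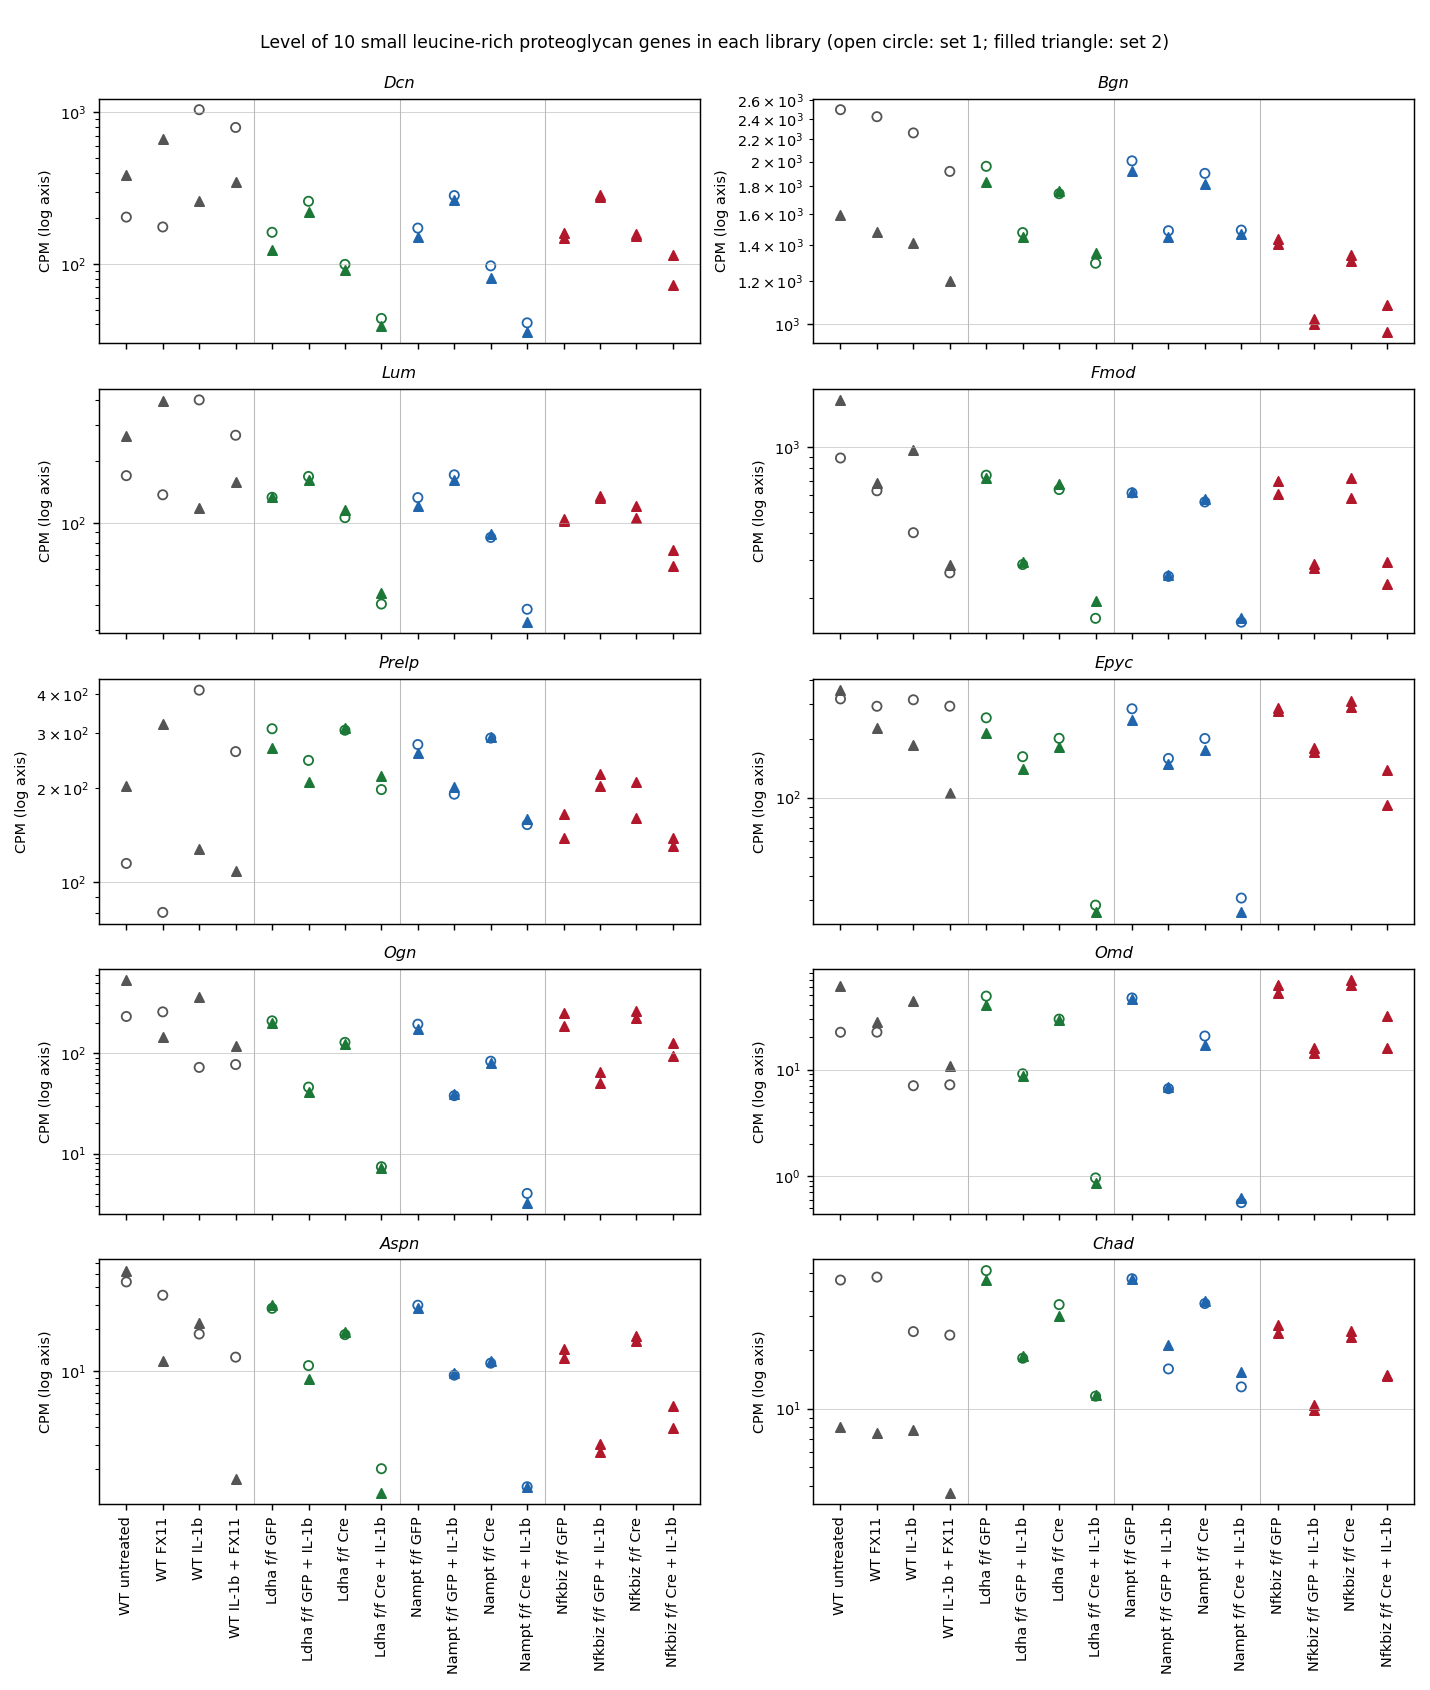
Level of each gene in each library in CPM after TMM scaling, on a log axis with its own range in each panel. Open circles are set 1 and filled triangles set 2, coloured by line (grey WT, green Ldha f/f, blue Nampt f/f, red Nfkbiz f/f). Ogn, Omd and Epyc are lowest in the Cre + IL-1b libraries of Ldha f/f and Nampt f/f, whereas Bgn stands at 966 CPM or more in every library.

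IL-1b split the family. Dcn rose while Ogn, Omd, Aspn, Fmod and Chad fell, and Bgn and Epyc fell less. Across the 16 control libraries (WT without FX11 and the GFP libraries, 8 with and 8 without IL-1b), 8 of the 10 genes passed the test, 1 higher and 7 lower, beside 39% of all 14115 genes tested, which included both directions. The members' median log2 fold change was -0.90, and that of all genes tested was -0.01. With WT left out, 9 passed. The same count was 9 without the set 2 WT library labelled IL-1b, where Lum joined the genes called (log2 fold change 0.47, adjusted p = 0.000789) after 0.32 ± 0.18 (SE) and an adjusted p of 0.167 with it. In set 2 alone, with the WT library labelled IL-1b kept, Dcn did not pass the test (log2 fold change 0.59, adjusted p = 0.0605). The WT pair of that set went from 385 CPM untreated to 259 CPM in the library labelled IL-1b. In Ldha f/f and Nampt f/f of set 2, Dcn rose from 123 to 222 CPM and from 152 to 264 CPM. The Nfkbiz f/f libraries rose from 159 and 149 CPM to 285 and 278 CPM. In whole-culture RNA, fewer cells of a type and less RNA per cell cannot be told apart.

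Among the class led by decorin, Dcn, which binds TGF-beta and the collagen fibril surface, was at 162 and 123 CPM in the GFP libraries of Ldha f/f and at 259 and 222 CPM with IL-1b. In Nampt f/f it went from 172 and 152 CPM to 283 and 264 CPM, and in Nfkbiz f/f from 159 and 149 CPM to 285 and 278 CPM. The groups did not overlap in any line, and the log2 fold changes were 0.75 ± 0.13, 0.78 ± 0.10 and 0.88 ± 0.16 (SE), with adjusted p = 0.00157, 0.00014 and 0.00123. Bgn, the closest relative of Dcn, moved the other way: it went from 1960.0 and 1831 CPM to 1477 and 1451 CPM in Ldha f/f, and its log2 fold changes were -0.38, -0.40 and -0.48 in the 3 lines. Aspn, which carries an aspartate run and no sulfate chain, fell from 28.3 and 29.7 CPM to 11.0 and 8.80 CPM in Ldha f/f, from 29.8 and 28.6 CPM to 9.42 and 9.82 CPM in Nampt f/f, and from 14.6 and 12.5 CPM to 3.01 and 2.65 CPM in Nfkbiz f/f. Its log2 fold changes were -1.54 ± 0.15, -1.58 ± 0.11 and -2.24 ± 0.21 (SE).

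Among the keratan sulfate class, Lum rose slightly in each line, by log2 fold changes of 0.31, 0.41 and 0.39 (adjusted p = 0.0144, 0.00238 and 0.0171). Fmod, which shares a collagen site with Lum, fell in each line, from 741 and 718 CPM to 285 and 293 CPM in Ldha f/f, and its log2 fold changes were -1.34 ± 0.09, -1.26 ± 0.06 and -1.20 ± 0.14 (SE). Omd, first described in bone, fell from 48.9 and 40.1 CPM to 9.12 and 8.65 CPM in Ldha f/f, from 47.0 and 45.9 CPM to 6.61 and 6.92 CPM in Nampt f/f, and from 62.1 and 51.9 CPM to 15.9 and 14.3 CPM in Nfkbiz f/f. These were the lowest ranked of the family in Ldha f/f and Nampt f/f: Omd had the 75th lowest log2 fold change of 15880 genes tested in Ldha f/f (-2.33 ± 0.12) and the 42nd lowest of 16136 in Nampt f/f (-2.76 ± 0.12). Prelp, which anchors basement membranes to collagen, did not move alike in the lines. It fell from 309 and 268 CPM to 245 and 209 CPM in Ldha f/f and from 275 and 259 CPM to 191 and 202 CPM in Nampt f/f, but rose from 138 and 165 CPM to 203 and 222 CPM in Nfkbiz f/f. Its log2 fold changes were -0.35 ± 0.10, -0.42 ± 0.06 and 0.50 ± 0.13 (SE), and the test of the difference among lines passed (adjusted p = 0.00316).

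Epyc, a proteoglycan of growth cartilage, fell in each line by log2 fold changes of -0.64, -0.77 and -0.67. Ogn, which carries keratan sulfate in some tissues, fell from 209.5 and 198 CPM to 45.9 and 41.1 CPM in Ldha f/f, from 194 and 173 CPM to 37.7 and 39.4 CPM in Nampt f/f, and from 252 and 187 CPM to 65.0 and 50.6 CPM in Nfkbiz f/f. The groups were far apart in all 3, with log2 fold changes of -2.23 ± 0.08, -2.23 ± 0.09 and -1.91 ± 0.18 (SE). Chad fell from 51.1 and 45.7 CPM to 18.1 and 18.6 CPM in Ldha f/f, and its log2 fold changes were -1.40, -1.32 and -1.32.

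In the GFP controls of each line, all 10 genes passed the test for IL-1b, beside 27.9% of genes in Ldha f/f, 35% in Nampt f/f and 26.8% in Nfkbiz f/f. There were 2 higher and 8 lower in Ldha f/f and Nampt f/f, and 3 were higher and 7 lower in Nfkbiz f/f. All 10 chondrocyte markers were also lower in each line. With the library set as a replicate block, Lum and Prelp passed in Ldha f/f (adjusted p = 0.000581 and 0.0011), beside 37.9% of genes. Without that block, the small changes did not all pass when 1 library was left out. The block and the leaving out of a library were not combined. In Ldha f/f, Lum did not pass without the set 1 GFP library or without either GFP + IL-1b library (adjusted p = 0.051, 0.0855 and 0.0551), nor Prelp without the set 1 GFP library (0.138) or the set 2 GFP + IL-1b library (0.171). For Nfkbiz f/f, Lum did not pass when any 1 library was left out (0.0859 to 0.104), Bgn without either GFP + IL-1b library (0.0672 and 0.0538), Prelp without GFP replicate 1 (0.151) or GFP + IL-1b replicate 2 (0.117), and Epyc without GFP + IL-1b replicate 2 (0.0588). Only 6 genes passed without the last of these. Among the 3 lines, Prelp was the only member whose IL-1b response differed, beside 2.01% of 16727 genes.

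**Figure D2:**
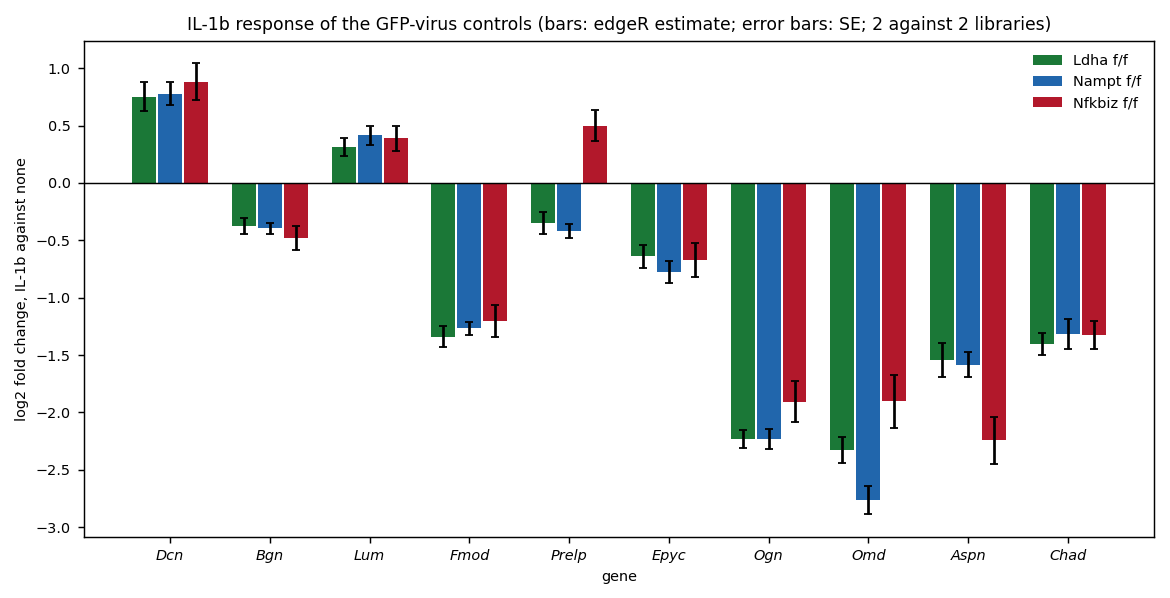
Log2 fold change of each gene with IL-1b in the GFP libraries of each line, from edgeR, with SE as error bars. Dcn and Lum lie above 0 in all 3 lines, Prelp lies above 0 in Nfkbiz f/f alone, and the other 7 genes lie below 0.

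The make-up of the family's transcripts shifted accordingly. The share of the family's summed level per length taken by Dcn went from 6.90% to 16.9% in Ldha f/f, from 8.02% to 19.3% in Nampt f/f and from 8.70% to 21.9% in Nfkbiz f/f, as the means of 2 GFP libraries without and with IL-1b. The share of Fmod fell from 22.4% to 12.8% in Ldha f/f and that of Ogn from 8.15% to 2.51%. Bgn had the largest share in each floxed group, at 55.2% to 56.2% in the Ldha f/f Cre + IL-1b libraries and 62.1% to 62.2% in those of Nampt f/f. The summed level itself was 942 to 1029.6 CPM per kb in Ldha f/f GFP and 661 to 705 CPM per kb in GFP + IL-1b. It was 838 to 842 CPM per kb in Ldha f/f Cre and 378 to 403 CPM per kb in Cre + IL-1b. In Nfkbiz f/f it was 612 to 622 CPM per kb with GFP + IL-1b and 423 to 531 CPM per kb with Cre + IL-1b. In the latter libraries Bgn held 33.5% to 37.5%.

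**Figure D3:**
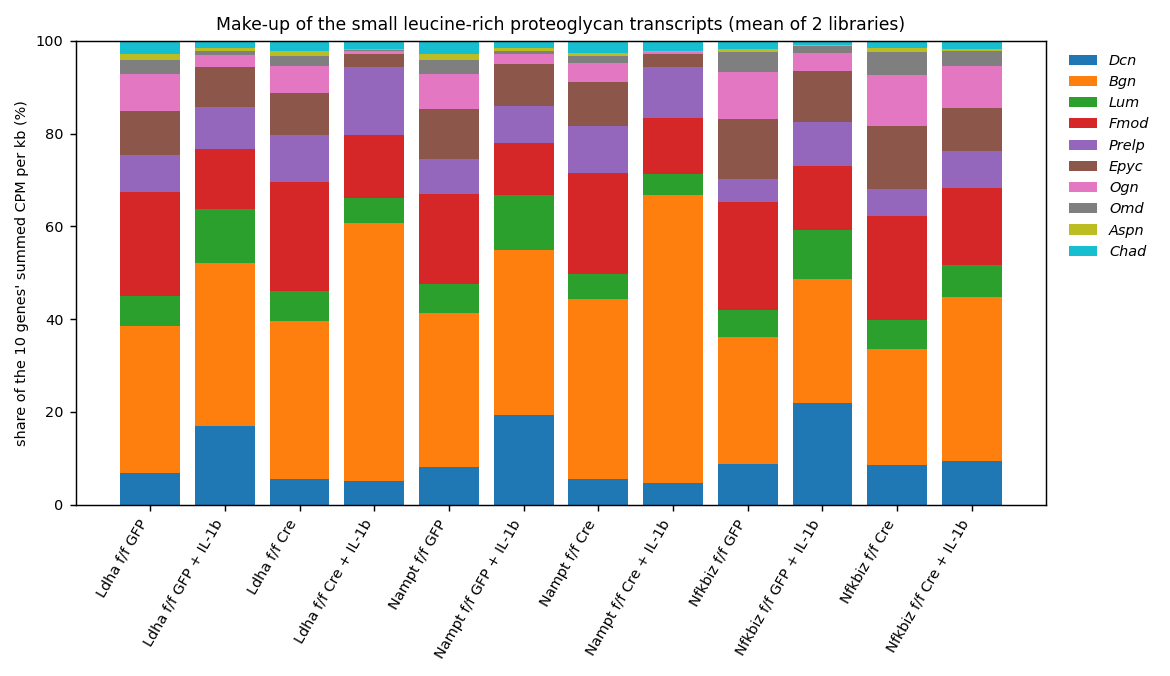
Share of the 10 genes' summed CPM per kb taken by each gene, as stacked bars that are means of 2 libraries in each floxed group. Bgn takes the largest segment in every group, and in the Cre + IL-1b groups of Ldha f/f and Nampt f/f it takes 55.2% or more in each library.

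Without IL-1b, Cre virus lowered some of the family in Ldha f/f and Nampt f/f and none measurably in Nfkbiz f/f. In Ldha f/f, 5 genes passed the test, all lower, beside 5.52% of genes: Ogn (log2 fold change -0.72 ± 0.07, adjusted p = 0.000497), Chad (-0.61 ± 0.09, 0.00566), Omd (-0.62 ± 0.11, 0.0093), Dcn (-0.60 ± 0.13, 0.0248) and Aspn (-0.64 ± 0.14, 0.0304). Ogn went from 209.5 and 198 CPM to 128 and 123 CPM. With the library set as a replicate block, 7 genes passed, beside 12.6% of genes, the added ones being Lum (-0.29, adjusted p = 0.00459) and Epyc (-0.32, 0.000803). The unblocked calls rested on single libraries: 2 genes passed without the set 1 GFP library or the set 1 Cre library, and 1, Ogn, without the set 2 Cre library.

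In Nampt f/f, 7 genes passed, all lower, beside 14.4% of genes. Aspn went from 29.8 and 28.6 CPM to 11.5 and 12.0 CPM (log2 fold change -1.33 ± 0.11), Omd from 47.0 and 45.9 CPM to 20.6 and 16.9 CPM (-1.31 ± 0.11) and Ogn from 194 and 173 CPM to 83.1 and 80.6 CPM (-1.17 ± 0.08). Dcn (-0.88), Lum (-0.56), Epyc (-0.51) and Chad (-0.41) fell less. Chad did not pass when any 1 library was left out (adjusted p = 0.138 to 0.188). With the replicate block, 9 genes passed, beside 26.7% of genes, with Fmod (-0.14, adjusted p = 0.00344) and Bgn (-0.09, 0.0239) added. Chad was among them (-0.41, adjusted p = 0.000186), and the fits that left out a library had no block. No member passed in Nfkbiz f/f, beside 0.26% of genes, with log2 fold changes from -0.11 for Bgn to 0.34 for Aspn and SEs from 0.10 to 0.21. At an unadjusted p of 0.05 or below, 0 members and 910 genes were called there, and DESeq2 called 0 members.

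The effect of Cre without IL-1b differed among the lines for 4 genes, beside 2.45% of genes: Aspn (adjusted p = 0.000203), Ogn (0.00127), Omd (0.00552) and Lum (0.0154). Aspn, Ogn and Omd are the chromosome 13 trio. With the replicate block Dcn joined them (0.00989), as it did without the set 2 GFP library of Ldha f/f (0.0344). Lum did not pass without any one of 5 libraries (the set 1 GFP and Cre libraries of Nampt f/f, either GFP library of Nfkbiz f/f and Nfkbiz f/f Cre replicate 2; 0.0535 to 0.103), and Omd did not pass without Nfkbiz f/f GFP replicate 2 (0.0554).

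With IL-1b present, Cre virus gave the largest changes, and their direction depended on the line. In Ldha f/f, 8 genes passed, all lower, beside 34% of genes, and in Nampt f/f 9 passed, all lower, beside 48.4%. The count in Nfkbiz f/f was 7, with 3 higher and 4 lower, beside 17.4%. The members' median log2 fold changes were -2.20, -2.32 and -0.05, against -0.02, -0.03 and -0.01 over all genes tested.

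The chromosome 13 trio showed the contrast most plainly. Omd read 9.12 and 8.65 CPM in Ldha f/f GFP + IL-1b and 0.959 and 0.853 CPM in Cre + IL-1b, where it rested on 29 and 17 reads. In Nampt f/f it went from 6.61 and 6.92 CPM to 0.562 and 0.626 CPM (21 and 15 reads). These were falls of 9.53-fold and 11.3-fold. The Nfkbiz f/f libraries went instead from 15.9 and 14.3 CPM to 31.5 and 16.0 CPM, which did not pass (log2 fold change 0.64 ± 0.24, adjusted p = 0.0838), although it passed without Cre + IL-1b replicate 2 (1.05, adjusted p = 0.000209), with 24 libraries in 1 model (0.65, 0.0185) and with no filter (0.64, 4.67e-05). Ogn went from 45.9 and 41.1 CPM to 7.41 and 7.23 CPM in Ldha f/f and from 37.7 and 39.4 CPM to 4.02 and 3.25 CPM in Nampt f/f. Nfkbiz f/f showed a rise from 65.0 and 50.6 CPM to 126 and 94.2 CPM. The log2 fold changes of Ogn were -2.55 ± 0.09, -3.37 ± 0.11 and 0.92 ± 0.18 (SE). Aspn gave -2.50 ± 0.19, -2.66 ± 0.14 and 0.75 ± 0.22, with values in Nfkbiz f/f of 3.01 and 2.65 CPM before and 5.67 and 3.96 CPM after.

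The chromosome 10 genes fell in every line. Dcn, which IL-1b had raised, went from 259 and 222 CPM to 43.7 and 39.2 CPM in Ldha f/f, from 283 and 264 CPM to 40.9 and 35.6 CPM in Nampt f/f and from 285 and 278 CPM to 115 and 72.9 CPM in Nfkbiz f/f. No Cre library overlapped a GFP library, and the falls were 5.70-fold, 7.05-fold and 3.02-fold. Lum fell 3.82-fold, 4.65-fold and 2.00-fold in the same order. Epyc, which lies beyond Kera on the same chromosome, fell 5.50-fold and 5.33-fold in Ldha f/f and Nampt f/f, and less in Nfkbiz f/f, from 180 and 172 CPM to 138 and 91.4 CPM (1.55-fold, adjusted p = 0.012). Kera itself did not exceed 0.552 CPM in any library.

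The other 4 genes moved less in Ldha f/f and Nampt f/f. Fmod fell by log2 fold changes of -0.69 and -0.67 in Ldha f/f and Nampt f/f and gave -0.11 in Nfkbiz f/f, which did not pass (adjusted p = 0.64). Chad fell by -0.64 and -0.37 in the first 2 lines and rose by 0.53 in Nfkbiz f/f. Prelp fell by -0.31 in Nampt f/f (adjusted p = 0.00153) and by -0.67 in Nfkbiz f/f (0.00356), with -0.10 in Ldha f/f (0.458). Bgn did not pass in any line, with log2 fold changes of -0.12 ± 0.07, 0.03 ± 0.05 and 0.01 ± 0.10 (SE).

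**Figure D4:**
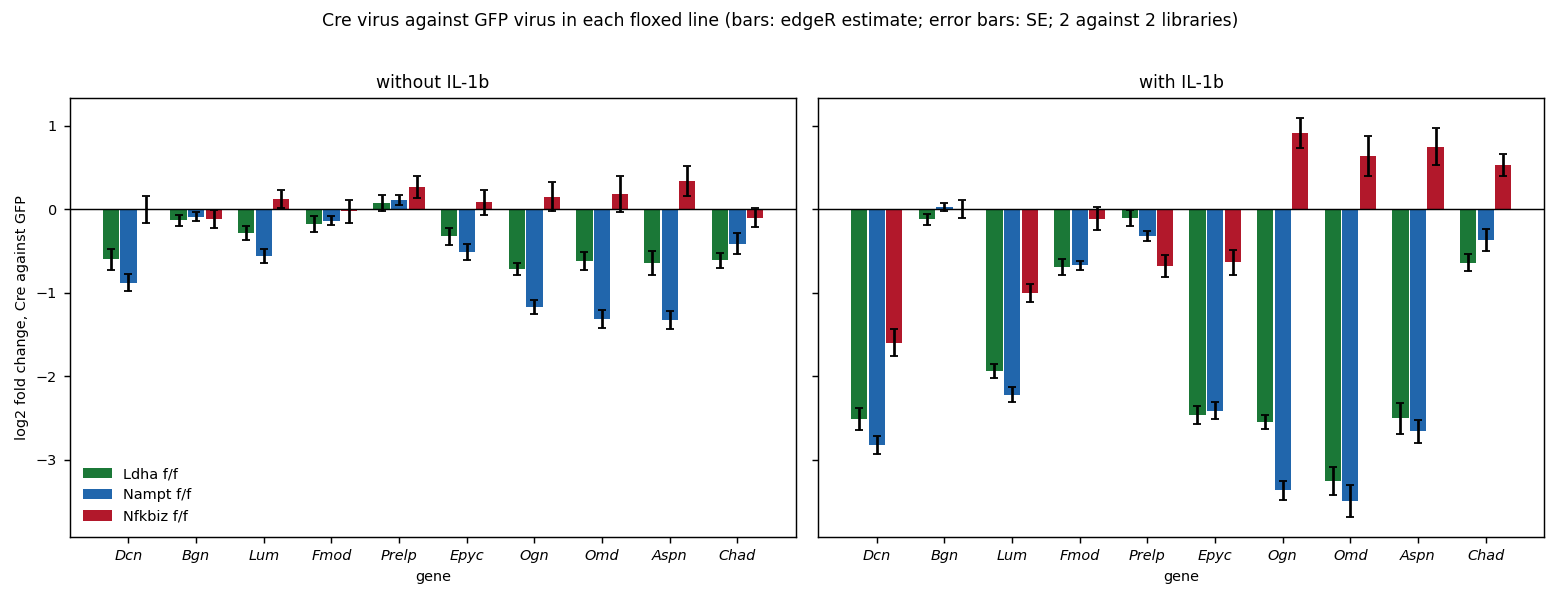
Log2 fold change of each gene with Cre against GFP virus, without IL-1b on the left and with it on the right, from edgeR, with SE as error bars. On the right, Ogn, Omd and Aspn lie between -2.50 and -3.49 in Ldha f/f and Nampt f/f and above 0 in Nfkbiz f/f, while Dcn, Lum and Epyc lie below 0 in all 3 lines.

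The calls in Nfkbiz f/f were the least stable. Without GFP + IL-1b replicate 1, 4 genes passed, and without GFP + IL-1b replicate 2, 3 passed. Epyc (adjusted p = 0.0943 and 0.0603), Aspn (0.100 and 0.198) and Chad (0.0619 and 0.109) did not pass without either of these, Ogn did not without the second (0.0575), and Aspn did not without Cre + IL-1b replicate 1 (0.167). The 2 Cre + IL-1b libraries themselves stood apart, with Dcn at 115 and 72.9 CPM and Omd at 31.5 and 16.0 CPM. In Nampt f/f, Chad did not pass without the set 1 Cre + IL-1b library or the set 2 GFP + IL-1b library. With all libraries and the replicate block it passed (-0.36, adjusted p = 0.00304), beside 58.3% of genes.

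The effect of Cre with IL-1b differed among the lines for 9 of the 10 genes, beside 28.6% of genes, with Bgn the exception (adjusted p = 0.422). The values were 1.97e-11 for Ogn, 2.52e-09 for Aspn, 8.48e-09 for Omd, 2.18e-07 for Epyc, 8.66e-07 for Lum, 4.89e-05 for Chad, 0.000373 for Dcn, 0.00644 for Fmod and 0.0412 for Prelp. Fmod did not pass without Nfkbiz f/f Cre + IL-1b replicate 1 (0.0613). Prelp did not pass in 9 of 12 fits that left out 1 library (0.0516 to 0.161). Those were the fits without the set 2 libraries of Ldha f/f, without the Nampt f/f libraries other than the set 1 Cre + IL-1b library, and without any of the Nfkbiz f/f libraries.

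Whether Cre changed the IL-1b response itself was tested as an interaction. In Ldha f/f, 7 genes passed, beside 11.5% of genes, and in Nampt f/f 8 passed, beside 22%. In Nfkbiz f/f, 3 passed, beside 5.19%. By edgeR with the main settings, every interaction called was below 0, so that the IL-1b response was lower after Cre than after GFP. Other fits called some above 0: Bgn in Nampt f/f with the block, and in Nfkbiz f/f Ogn by DESeq2 (0.77, adjusted p = 0.0293), with 24 libraries in 1 model (0.76, 0.0165) and with no filter (0.77, 9.35e-05), and Chad with 24 libraries in 1 model (0.63, 0.0223). For Dcn the log2 change with IL-1b was 0.75 with GFP and -1.16 after Cre in Ldha f/f, 0.78 and -1.16 in Nampt f/f, and 0.88 and -0.71 in Nfkbiz f/f. Lum went from 0.31 to -1.34, from 0.41 to -1.25 and from 0.39 to -0.74. The values after Cre are the fitted change with GFP plus the interaction, and were not themselves tested against 0. Their sign was opposite to that with GFP for both genes in all 3 lines. All 6 interactions passed (adjusted p = 8.08e-06 to 0.00109). The sign for Prelp in Nfkbiz f/f differed as well, with 0.50 for GFP and -0.45 after Cre (interaction adjusted p = 0.0105).

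Genes that already fell with IL-1b fell further after Cre in Ldha f/f and Nampt f/f. Omd changed by -2.33 with GFP and -4.96 after Cre in Ldha f/f and by -2.76 and -4.94 in Nampt f/f. Ogn changed by -2.23 and -4.06 in Ldha f/f, and Epyc by -0.64 and -2.78. In Nfkbiz f/f the interactions of Ogn (0.76, adjusted p = 0.107), Chad (0.63, 0.0575), Omd (0.46, 0.514) and Aspn (0.41, 0.502) were above 0 and did not pass. Chad and Bgn had interactions of -0.02 and 0.01 in Ldha f/f and of 0.04 and 0.12 in Nampt f/f, and none of the 4 passed. With the replicate block Bgn passed in Nampt f/f (0.12, adjusted p = 0.0258), beside 35% of genes. Fmod passed in Ldha f/f with the block (-0.52, adjusted p = 0.000525), beside 21.2% of genes. The fits below that left out 1 library were run without the block. The interaction of Fmod in Ldha f/f (-0.52, adjusted p = 0.0318) did not pass in 7 of 8 fits that left out 1 library (0.0522 to 0.115), the exception being the fit without the set 2 Cre + IL-1b library. For the Nfkbiz f/f interaction, leaving out Cre + IL-1b replicate 1 gave -1.04 for Epyc and 0.64 for Chad. Leaving out Cre + IL-1b replicate 2 gave 0.96 for Ogn and 0.86 for Omd. Prelp did not pass there without GFP replicate 1 (0.0621) or GFP + IL-1b replicate 2 (0.068).

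In WT cells no member passed in any of the 4 comparisons by edgeR, and 0% of 15461 genes passed for IL-1b against untreated, for FX11 against untreated, for FX11 with IL-1b against IL-1b and for FX11 with IL-1b against untreated. At an unadjusted p of 0.05 or below, 153, 68, 102 and 860 genes were called, and DESeq2 called 6, 2, 1 and 144. Fmod was the only member that DESeq2 called, in the last comparison (log2 fold change -2.23, adjusted p = 0.00307). The untreated libraries held 891 and 1658 CPM of Fmod, and those with both agents 261 and 283 CPM. In set 1, Dcn was 204 CPM untreated, 175 CPM with FX11, 1040.5 CPM with IL-1b and 794 CPM with both, and Ogn was 232, 257, 72.1 and 77.0 CPM. In set 2, Dcn was 385 CPM untreated, 670.4 CPM in the library labelled FX11, 259 CPM in the library labelled IL-1b and 345 CPM with both. Ogn in set 2 was 529.6, 144, 359 and 117 CPM in the same order. Chad was 23.8 to 47.4 CPM in the 4 libraries of set 1 and 3.69 to 8.08 CPM in those of set 2.

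Without the 2 libraries labelled IL-1b and FX11 in set 2, an alternative chosen after seeing the data, no member passed either. The log2 fold change with IL-1b was then 1.83 for Dcn (1.15 with all libraries), -2.39 for Ogn (-0.81) and -2.57 for Omd (-0.72). For FX11 with IL-1b against IL-1b, Omd gave 0.37 (-1.48 with all libraries) and Ogn 0.44 (-1.14). Dcn gave -0.75 for FX11 against untreated, against 0.55 with all libraries. The sign of these FX11 values thus depended on the 2 libraries, and none passed the test.

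Genes of the pathway around the SLRPs were counted from lists chosen by function. Their counts stand beside 39% of all genes called over the control libraries, and beside 34% in Ldha f/f, 48.4% in Nampt f/f and 17.4% in Nfkbiz f/f for Cre with IL-1b. Of the enzymes that build linkage, dermatan and keratan sulfate chains, 19 were tested over the 16 control libraries, and IL-1b raised 2 and lowered 5. Xylt1, which starts the chain, fell (log2 fold change -0.93), and B4galt1 rose (1.00). With IL-1b, Cre raised 8 and lowered 3 of 20 in Ldha f/f, raised 10 and lowered 3 in Nampt f/f, and raised 2 and lowered 2 in Nfkbiz f/f. The keratan sulfate sulfotransferase Chst1 rose in the first 2 lines (3.14 and 3.72), and Dse, the epimerase that makes dermatan sulfate, fell in all 3 (-1.30, -1.53 and -0.64). The list medians were 0.15, 0.32 and -0.05.

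Of 9 proteases known to cleave SLRPs, IL-1b raised 5 and lowered 1 in the control libraries, with Mmp3 (10.48) and Mmp13 (2.85) highest. With IL-1b, Cre lowered Mmp3 in all 3 lines (-2.37, -2.48 and -2.69) and raised the serine protease Htra1 in Ldha f/f (2.23) and Nampt f/f (2.26). The counts were 5 higher and 3 lower of 10, 6 and 3 of 9, and 1 and 5 of 9. Of 16 collagens whose fibrils SLRPs bind, IL-1b lowered 11 and raised none in the control libraries, with Col11a1 (-1.35) and Col11a2 (-1.32) lowest. With IL-1b, Cre lowered 13 in Ldha f/f, 13 in Nampt f/f and 2 in Nfkbiz f/f, and raised none. Of 17 growth factors and receptors that SLRPs bind, IL-1b raised 9 and lowered 5, with Tlr2, a receptor for soluble decorin and biglycan, highest (2.48). With IL-1b, Cre raised Tgfbr2 in all 3 lines (1.03, 1.08 and 0.75).

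Among other SLRPs and near relatives, Kera stayed near 0, and 6 of 8 were tested over the control libraries, of which IL-1b raised Tsku (1.83) and lowered Ecm2 (-0.91) and Chadl (-0.44). With IL-1b, Cre lowered Ecm2 in Ldha f/f (-1.42) and Nampt f/f (-3.04), and lowered Tsku in all 3 lines (-0.70, -0.52 and -0.92).

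Cell type markers moved with these results. With IL-1b, Cre lowered 9 of 10 chondrocyte markers in Ldha f/f and 8 of 10 in Nampt f/f, and raised 1 and lowered 1 in Nfkbiz f/f. It lowered 8 of 12 fibroblast and perichondrium markers in each of Ldha f/f and Nampt f/f, with 1 raised in Nampt f/f, and 1 of 10 in Nfkbiz f/f with 1 raised. The summed fibroblast and perichondrium level was 5104 to 5265 CPM in Ldha f/f GFP + IL-1b and 3358 to 3388 CPM in Cre + IL-1b. The summed chondrocyte marker level in the same groups was 24317 to 24806 CPM and 13091 to 13889 CPM. Runx2, an osteoblast gene, was at 24.5 to 79.8 CPM, and Alpl reached 52.2 CPM, while Dmp1 did not exceed 0.551 CPM. Among endothelial genes, Kdr reached 21.8 CPM, whereas Cldn5 was at 0 in 13 libraries and at most 0.482 CPM in the rest. Of the endothelial genes tested, Cre with IL-1b raised 2 of 5 in Ldha f/f. It raised 3 and lowered 1 of 5 in Nampt f/f and changed 0 of 4 past the threshold in Nfkbiz f/f. The summed level of all 6 endothelial genes went from 6.42 to 7.34 CPM in GFP + IL-1b to 21.3 to 24.8 CPM in Cre + IL-1b in Ldha f/f, from 9.01 to 9.38 CPM to 27.9 to 29.6 CPM in Nampt f/f and from 4.96 to 6.16 CPM to 9.45 to 9.74 CPM in Nfkbiz f/f. The part of these cell types in the results was not tested.

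Across the 12 floxed groups, the family fell into a few patterns, described here by Pearson correlation of group means of log2(CPM + 1), which share libraries, virus and IL-1b. Ogn and Omd were the closest pair (r = 0.993), followed by Dcn and Lum and by Epyc and Ogn (both 0.941) and by Epyc and Omd (0.937). Aspn was closer to Chad (0.912) and Fmod (0.908) than to its chromosome 13 neighbours Ogn (0.840) and Omd (0.825). Bgn was closest to Chad (0.853) and unlike Dcn (-0.0932), and Prelp was closest to Bgn (0.715). Some of these orders changed over all 16 groups, WT included. There Aspn was closer to Ogn (0.845) and Omd (0.799) than to Chad (0.686), with Fmod at 0.936. Bgn was then closest to Aspn (0.725) and Prelp to Chad (0.57).

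**Figure D5:**
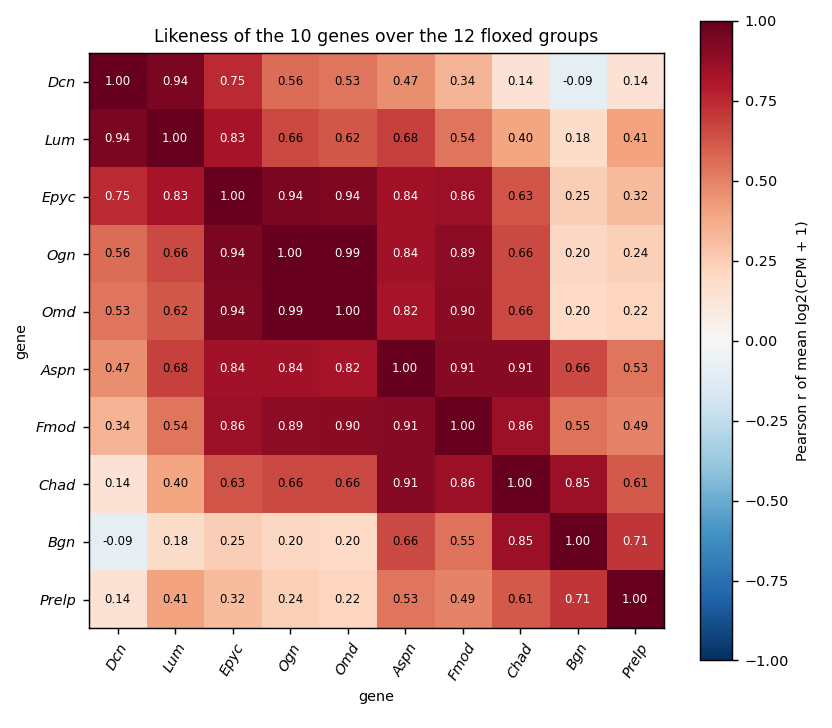
Pearson correlation of mean log2(CPM + 1) between the 10 genes over the 12 floxed groups, from -1 (blue) to 1 (red). Dcn and Lum pair at 0.94, Epyc, Ogn and Omd form a block at 0.94 to 0.99, and Bgn and Dcn are near 0.

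The genes most like each member over all 16 groups, by the same measure and with no test, were sought among 13919 genes. Ogn was closest to the zinc finger gene Zfp521 (r = 0.993), Omd to Tspyl4 (0.989), Dcn to the zinc finger gene Bnc2 (0.972) and Lum to P2ry10b (0.973). Epyc was closest to Hapln1, the cartilage link protein (0.983), Fmod to Snorc, a cartilage proteoglycan (0.972), Chad to the cartilage cytokine-like gene Cytl1 (0.967) and Aspn to Srpx (0.973). Bgn was closest to the protease gene Adamts12 (0.934), and Prelp had the lowest best match, Runx3 (0.857). No member was among the 3 nearest genes of another.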

How the data were processed

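RNA was measured in 32 libraries of ribosomal-RNA-depleted total RNA. The authors aligned reads to GRCm38 with STAR, counted them per gene of Ensembl release 76 with featureCounts, and deposited raw counts, CPM and RPKM for each library. The submitters' processing notes name STAR 2.0.4b and featureCounts 1.45, and use of strand was not stated. Only the deposited counts entered the tests here, and the deposited CPM and RPKM were not used. Groups came from the sample labels, and the 10 genes were matched by symbol to Ensembl identifiers. The 355 ribosomal RNA genes were left out of library sizes and tests, and 1134 identifiers carried no name. Totals were 15830658 to 39959888 counts per library, and replicate libraries differed by more than sampling noise in every condition.

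Genes above 1 CPM in at least 7 of the 16 control libraries, or in at least 1 library of any other fit, were tested with edgeR 4.0.16 (R 4.3.3) by the quasi-likelihood test with TMM scaling, and p-values were adjusted by the Benjamini-Hochberg method over all genes tested, with a threshold of 0.05. Each floxed line was fitted on its own 8 libraries, lines were compared over 24, and WT was fitted on its 8. Levels are TMM-scaled CPM, and levels per length use the summed exon length. Alternatives were DESeq2 1.42.0, limma 3.58.1 voomWithQualityWeights (the study's own test), RLE scaling, other filters, 1 model for 24 libraries, library set as a replicate block and leaving out each library. Same-numbered libraries of Ldha f/f and Nampt f/f shared a library set and deviated together (r = 0.437 to 0.716 and 0.515 to 0.668 over 6 pairs of groups each), so the numbers pair them. In WT, r was -0.278 between the FX11 and IL-1b groups, whose set 2 libraries went against their labels. The other pairs of WT groups gave 0.238 to 0.726. In Nfkbiz f/f (-0.447 to 0.148) the numbers did not pair the libraries. The main test remained without the block, as did the fits that left out 1 library. The blocked value is given where it changes a call, and for some calls lost when 1 library was left out. On simulated counts with 200 genes changed 2-fold, the test recovered 200 for IL-1b over the control libraries (6 false calls among 13994 genes), 195 for IL-1b in Ldha f/f (9 among 14972) and 159 for the IL-1b response among lines (9 among 15395). The simulated counts had the same fixed spread for every gene and no difference between lines or library sets. Only genes with higher counts were changed. The recovery therefore does not give the power of the tests on the real libraries.

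The members and the lists of related genes and markers were chosen with earlier results of these data known. All 10 members are named, and of each related list the genes called with the largest change in each direction. Promoter sequences are from RefSeq.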

Additional observations from a re-analysis of the deposited data

Results flagged for a closer look

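The results below were picked out because the same contrast gave different effects in 2 groups by a test of the difference itself, adjusted over all genes tested by edgeR. The IL-1b response differed between Cre and GFP in Ldha f/f for Dcn (adjusted p = 0.000192), Lum (3.05e-05), Fmod (0.0318), Epyc (3.38e-05), Ogn (1.64e-05), Omd (5.98e-05) and Aspn (0.00102). In Nampt f/f it differed for Dcn (1.04e-05), Lum (8.08e-06), Fmod (0.000843), Prelp (0.0053), Epyc (8.98e-06), Ogn (4.65e-06), Omd (8.76e-05) and Aspn (0.000426). In Nfkbiz f/f it differed for Dcn (0.00109), Lum (0.000808) and Prelp (0.0105).

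Among the 3 floxed lines, the IL-1b response of the GFP libraries differed for Prelp (0.00316). The effect of Cre without IL-1b differed among lines for Lum (0.0154), Ogn (0.00127), Omd (0.00552) and Aspn (0.000203). The effect of Cre with IL-1b differed for Dcn (0.000373), Lum (8.66e-07), Fmod (0.00644), Prelp (0.0412), Epyc (2.18e-07), Ogn (1.97e-11), Omd (8.48e-09), Aspn (2.52e-09) and Chad (4.89e-05). The Nfkbiz f/f libraries were all in set 2, so line and library set cannot be told apart in part of these comparisons.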

How the results depend on the processing

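Over all alternatives, 2480 of the values for single genes kept their direction and their side of the threshold, 36 came to pass it, 69 no longer passed and 85 changed sign. All 85 were values that did not pass in either fit. Counts are of members called. Here and above, the share of all genes called is given for the main settings and the replicate block only. In the other fits, all genes may have gained or lost calls along with the members. In Nfkbiz f/f the interaction called 3 members, but 5 by DESeq2, 5 with no filter and 6 with 24 libraries in 1 model. DESeq2 called 1 member (Fmod) for FX11 with IL-1b against untreated in WT, where edgeR called 0, and with no filter the IL-1b response differed among lines for 2 members, not 1. Leaving out 1 library gave 1 to 5 members for Cre without IL-1b in Ldha f/f, 6 to 9 for IL-1b in Nfkbiz f/f, 3 to 8 for Cre with IL-1b in Nfkbiz f/f, 2 to 5 for the Nfkbiz f/f interaction and 2 to 5 for Cre without IL-1b among lines. The cause was not tested, beyond the fewer samples in those fits. By voomWithQualityWeights, calls were lost for Aspn with Cre and IL-1b in Nfkbiz f/f (adjusted p = 0.102), Chad with Cre and IL-1b in Nampt f/f (0.0598) and Prelp with Cre and IL-1b among lines (0.0521), and made for Lum over the control libraries (0.000199), Epyc in the Nfkbiz f/f interaction (0.0174) and Dcn with Cre without IL-1b among lines (0.0249, and 0.00628 by DESeq2). Omd with Cre without IL-1b in Ldha f/f was lost with 24 libraries in 1 model (0.0521). With the library set as a replicate block, 6 further calls were made for single genes, all given above, and no call was lost.

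Values below are log2 fold changes of opposite sign to those with all libraries and the main settings. Prelp gave -0.10 by voomWithQualityWeights, -0.093 without WT and -0.064 in set 2 alone for IL-1b over the control libraries. Bgn gave -0.0037 with no filter, -0.041 with filterByExpr and -0.030 with 24 libraries in 1 model for the Ldha f/f interaction, and -0.00038 with 24 libraries in 1 model for Cre with IL-1b in Nampt f/f. Chad gave -0.0017 with 24 libraries in 1 model for the Nampt f/f interaction and -0.0065 with the replicate block for FX11 in WT. Dcn gave -0.00067 by DESeq2, -0.00066 with RLE scaling and -0.0061 with no filter for Cre without IL-1b in Nfkbiz f/f. By voomWithQualityWeights in WT, Lum gave -0.0020 for IL-1b and Dcn 0.032 for FX11 with IL-1b against IL-1b. Without the set 2 WT library labelled IL-1b, and also without it and the set 2 library labelled FX11, Bgn gave 0.15 for IL-1b, and Ogn gave 0.44 and Omd 0.37 for FX11 with IL-1b against IL-1b. Without both of these libraries, Dcn gave -0.75, Bgn 0.24, Lum -0.67 and Prelp -0.99 for FX11. Leaving out 1 library at a time gave ranges of log2 fold change that crossed 0. For IL-1b over the control libraries it was Prelp (-0.14 to 0.18). For Cre without IL-1b in Ldha f/f it was Prelp (-0.023 to 0.18). For the Ldha f/f interaction they were Bgn (-0.053 to 0.059) and Chad (-0.11 to 0.072). For Cre with IL-1b in Nampt f/f it was Bgn (-0.013 to 0.048). For the Nampt f/f interaction it was Chad (-0.22 to 0.25). For Cre without IL-1b in Nfkbiz f/f they were Dcn (-0.054 to 0.046), Fmod (-0.19 to 0.12) and Ogn (-0.053 to 0.38). For Cre with IL-1b in Nfkbiz f/f they were Bgn (-0.081 to 0.090) and Fmod (-0.30 to 0.053). For the Nfkbiz f/f interaction they were Fmod (-0.27 to 0.078) and Omd (-0.11 to 0.86). For IL-1b in WT they were Dcn (-0.18 to 1.83), Bgn (-0.53 to 0.22), Lum (-0.87 to 0.88), Prelp (-0.31 to 1.38), Omd (-2.56 to 0.18) and Chad (-1.79 to 1.03). For FX11 in WT they were Dcn (-0.74 to 1.22), Bgn (-0.44 to 0.31), Lum (-0.67 to 0.88), Prelp (-0.98 to 1.04), Omd (-1.27 to 0.18) and Chad (-1.82 to 1.77). For FX11 with IL-1b against IL-1b in WT they were Dcn (-0.88 to 1.14), Bgn (-0.58 to 0.15), Lum (-0.90 to 0.85), Prelp (-1.27 to 0.54), Epyc (-1.21 to 0.22), Ogn (-1.88 to 0.44), Omd (-2.27 to 0.37) and Chad (-2.11 to 0.83). For FX11 with IL-1b against untreated in WT they were Lum (-0.45 to 0.33), Prelp (-0.53 to 0.72) and Chad (-2.85 to 0.78).

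Where leaving out a library left 1 in a group, that library was assumed to vary like the others. Omd and Aspn rested on 15 to 61 reads per library in the Cre + IL-1b groups of Ldha f/f and Nampt f/f, which limits their fold changes there, and 2 libraries per group limit all comparisons of a line.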

Other observations

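Summed levels of the osteoblast, macrophage and leukocyte, skeletal muscle and endothelial genes stayed below that of the fibroblast and perichondrium genes. In WT the 8 skeletal muscle genes summed to 32.3 to 295 CPM and the 9 macrophage and leukocyte genes to 105 to 282 CPM. The highest levels of Lyz2 (132 CPM), Myh3 (90.1) and Runx2 (79.8) were above those of Omd (68.7), Aspn (52.7) and Chad (51.1). Over the 16 control libraries, 39% of all genes were called. There IL-1b lowered 4 of 5 osteoblast genes tested and raised none, with a median log2 fold change of -0.76. It raised 4 of 6 macrophage and leukocyte genes and lowered none (0.65), lowered 1 of 7 skeletal muscle genes (0.05), and changed none of 4 endothelial genes past the threshold (0.34). The summed level of 8 skeletal muscle genes went, with IL-1b in the GFP libraries, from 83.1 to 90.7 CPM to 34.0 to 36.6 CPM in Ldha f/f, from 105 to 115 CPM to 58.5 to 59.6 CPM in Nampt f/f and from 76.8 to 92.1 CPM to 12.3 to 14.3 CPM in Nfkbiz f/f, and its part in the results was not tested. With IL-1b, Cre lowered 4 of 6 osteoblast genes in Ldha f/f, 3 of 6 in Nampt f/f and 0 of 5 in Nfkbiz f/f, by edgeR. The shares of all genes called were 34%, 48.4% and 17.4% in the same order. Summed over all libraries, the 7 osteoblast genes lay between 44.6 and 184 CPM and the 6 endothelial genes between 4.68 and 29.6 CPM.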
